A study of Mus musculus with 26 samples.

Results

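The comparison concerns 2 truncated insulin receptors (IR) in brown preadipocytes that had received no insulin: JMO, which ends after the juxtamembrane stretch and has neither kinase domain nor C-terminal tail, and ∆CT, which lacks the C-terminal tail and retains the kinase. It uses 6 of the 26 RNA-seq libraries, 3 for each receptor. The genes compared were the 15402 of 52962 in the deposited table that exceeded 0.5 CPM (counts scaled to the library total) in at least 4 of the 26 libraries. At the edge of that filter Gm15163 was retained, with 0.5003 CPM in its fourth-ranked library, and Olfr1246 was left out at 0.49969 CPM. The study asked how IR forms with and without particular intracellular domains shape gene expression with and without ligand.

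All cells came from brown preadipocytes of newborn mice with floxed Insr and Igf1r, immortalized with SV40 T antigen and deleted for both genes with Cre (DKO). Human IR of the B isoform was then returned by a retroviral vector under hygromycin selection as normal IR, as the K1030R kinase-site mutant, as ∆CT or as JMO. Every culture was serum-starved for 6 h, and the insulin groups then received 100 nM insulin for 15 min. Each receptor was represented by a single reconstituted line, so that receptor and cell line cannot be told apart. Nothing in the labels says that the libraries of a group came from separate cultures. The p-values therefore measure the spread between libraries within groups, estimated over all 26 libraries. That spread may be technical.

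The insulin receptor is a tyrosine kinase that signals through IRS proteins, and its truncation changes which partners the intracellular part can hold. Type I interferon signals through JAK kinases to a complex of transcription factors that includes STAT2 and IRF9, which binds interferon-stimulated response elements (ISRE) in front of antiviral genes. Preadipocytes are fibroblast-like cells that secrete a collagen-rich matrix, and their sterol and fatty acid genes are under control of SREBP transcription factors.

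The 26 libraries held 17228982 to 24694828 estimated counts, and the 6 libraries compared held 19561131 to 24439952. Of 10 preadipocyte or mesenchymal markers 7 passed the filter. All 10 summed to a mean of 5800 CPM in JMO and 9050 CPM in ∆CT cells. The main terms were Col1a1, at 3730 and 6350 CPM, and Vim, at 1220 and 1810 CPM. Ebf2 (0.157 and 0.149 CPM), Zfp423 (0.114 and 0 CPM) and Dlk1 (0.0085 and 0.032 CPM) were nearly absent. Other members went both ways, with Cd34 at 4.91 and 14.2 CPM and Ly6a at 10.7 and 2.9 CPM. Of 9 macrophage and leukocyte markers, 4 passed the filter and summed to 26.8 CPM in JMO and 18 CPM in ∆CT cells; Ptprc was at 0.211 and 0.182 CPM and Adgre1 had no count in either. Ucp1, the uncoupling protein of mature brown fat, had no count in either line, nor did the fat cell genes Adipoq, Lep and Cidec. Reads assigned to mouse Insr were 74.2, 68.9 and 69.8 CPM in JMO and 81.8, 78.8 and 74.6 CPM in ∆CT cells against a mean of 23.8 CPM in DKO cells, although the returned receptor is human and the reference was mouse. Igf1r, which was deleted in all lines, had 30.7, 29.7 and 29.8 CPM in JMO and 29.9, 31.1 and 29.9 CPM in ∆CT libraries, which overlapped, with 27.1 CPM in DKO cells. The origin of these Insr and Igf1r reads was not tested.

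JMO and ∆CT cells differed by more than 1.5-fold in 694 genes (4.51% of those tested; edgeR's quasi-likelihood test against a minimum fold of 1.5, Benjamini-Hochberg adjusted p below 0.05, which is what "called" means from here on). Of these, 528 genes (3.43%) were higher and 166 (1.08%) were lower in JMO cells. The higher genes differed by more, with a median log2 fold change of 1.57, and 179 of them exceeded 4-fold and 21 exceeded 16-fold. The lower genes had a median of -1.08 on the log2 scale, and 26 exceeded 4-fold and 3 exceeded 16-fold. Over all tested genes the median was 0.00, and the biological coefficient of variation was 4.44%. With no minimum fold the same fit called 3001 genes higher (19.5%) and 2974 lower (19.3%), 38.8% in all, and the 3 libraries of one line lay wholly above or below those of the other in 7109 genes (46.2%), all called genes among them. In bulk RNA, fewer cells of a kind and less RNA per cell cannot be told apart, and this applies to every level given here.

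**Figure D1:**
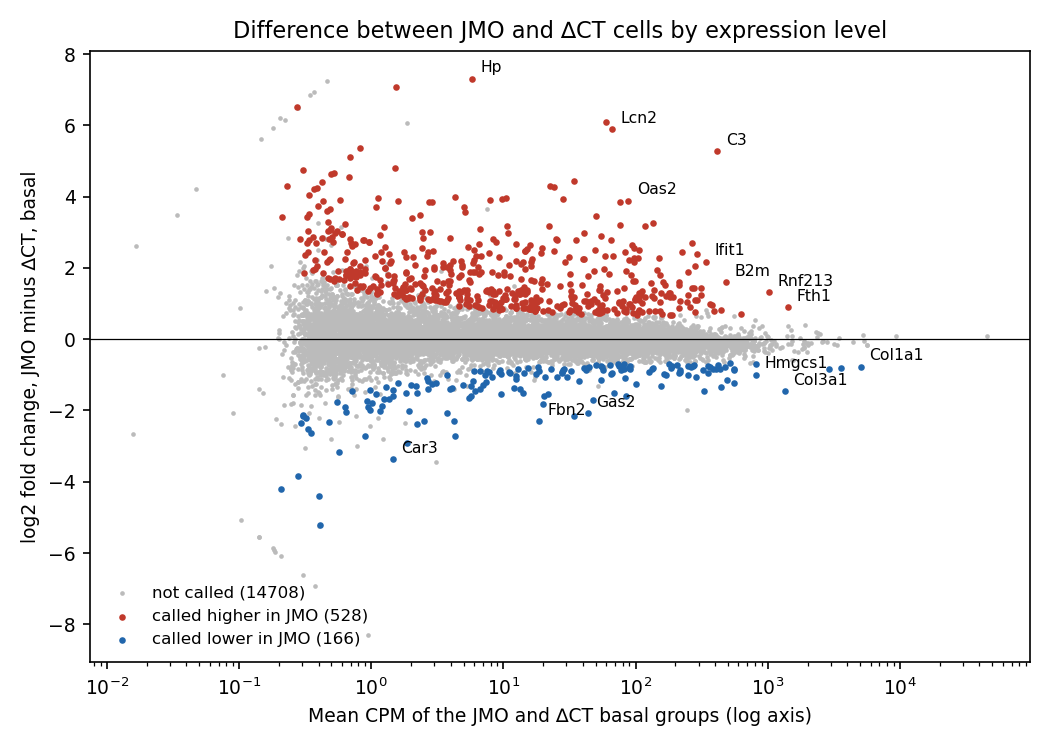
Log2 fold change, JMO minus ∆CT without insulin, against the mean CPM of both groups (log axis) for the 15402 tested genes, with 528 called higher in red and 166 called lower in blue. Genes called higher reach to a log2 fold change of 7.31 (Hp). Abundant genes were called in both directions, for example Fth1 at 0.89 and Col1a1 at -0.77.

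∆CT replicate 3 stood apart from the other ∆CT basal libraries in interferon genes. List medians that moved, and Isg15, Oas2 and Irf7, are given with and without it. Values of the other single genes below include it. Without it the log2 fold change was 2.54 for Ifit1, 3.31 for Mx1, 4.73 for Zbp1 and 1.46 for Stat2, each larger than with it. That of Slfn2 was smaller, at 6.65 against 7.08. Over the 66 tested interferon effectors the CPM of ∆CT replicate 3 was a median of 1.53 times the mean of the other 2 libraries, with 0.5 CPM added to both. It was the highest of the 3 in 62 genes, beside 5831 of all 15402, and its CPM was at least 1.5 times that mean in 39. Over all tested genes the median ratio was 1, and 350 genes with at least 1 CPM in ∆CT replicate 3 reached 1.5 times. In the interferon effectors the median deviation of ∆CT replicate 3 was toward the level of JMO cells. The 3 libraries of either line did not overlap in 64 of the 66 effectors, beside 46.2% of all tested genes.

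Interferon effectors, the antiviral proteins that interferon induces, were the list with the largest share of called members. Of 66 tested members 59 (89.4%) were higher in JMO cells and 0 were lower, with a median log2 fold change of 1.81, or 2.06 without ∆CT replicate 3. Their summed level was 9885, 9065 and 10220 CPM in the JMO libraries and 2895, 2862 and 4192 CPM in the ∆CT libraries. The sums did not overlap, and the third ∆CT library was the one nearest to JMO. The list and the other lists here were drawn up with earlier results of these data known. Over all tested genes 3.43% were called higher and 1.08% lower, and the called count of each list stands beside these shares. Counts without a minimum fold stand beside 19.5% higher and 19.3% lower.

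Promoter sequences of 7 of these and related genes are shown because they carry the ISRE core (GAAA, any 2 bases, then GAAA again, searched on both strands from 250 bases before to 50 bases after the RefSeq start, GRCm38). Capitals mark the core, which reads as TTTC, any 2 bases and TTTC where it lies on the other strand, and each run is printed 5′ to 3′ on the strand of its gene. They come from Isg15 (chr4:156200847-156200936, minus strand), Ifit1 (chr19:34640745-34640834, plus), Ifit3 (chr19:34583333-34583422, plus), Ifit3b (chr19:34607729-34607818, plus), Oas3 (chr5:120777685-120777774, minus), B2m (chr2:122147508-122147597, plus) and Cxcl10 (chr5:92349053-92349139, minus):
Isg15: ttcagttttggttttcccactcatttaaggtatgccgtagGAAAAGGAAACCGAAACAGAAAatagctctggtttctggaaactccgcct
Ifit1: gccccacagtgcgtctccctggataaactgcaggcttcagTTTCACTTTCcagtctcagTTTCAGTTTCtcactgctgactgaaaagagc
Ifit3: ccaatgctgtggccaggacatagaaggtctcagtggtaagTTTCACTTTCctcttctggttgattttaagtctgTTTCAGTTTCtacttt
Ifit3b: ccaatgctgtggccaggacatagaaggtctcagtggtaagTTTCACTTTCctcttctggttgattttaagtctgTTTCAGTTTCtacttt
Oas3: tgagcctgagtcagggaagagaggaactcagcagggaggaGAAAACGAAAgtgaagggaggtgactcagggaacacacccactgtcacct
B2m: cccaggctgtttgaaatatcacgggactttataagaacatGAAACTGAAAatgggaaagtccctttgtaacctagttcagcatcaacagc
Cxcl10: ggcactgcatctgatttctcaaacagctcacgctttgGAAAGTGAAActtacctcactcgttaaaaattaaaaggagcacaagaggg

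The Isg15 run holds 3 overlapping matches, the Ifit1, Ifit3 and Ifit3b runs hold 2 each, and Oas3, B2m and Cxcl10 hold 1. The Ifit3 and Ifit3b stretches are identical over the 90 bases, so that reads from these paralogs may also be hard to assign. Among the 10829 tested genes with a RefSeq promoter, 410 (3.79%) held the core. It was found in 25 of 45 called interferon effectors with a promoter (55.6%), in 72 of the 356 genes called higher (20.2%) and in 5 of the 110 called lower (4.55%). Outside the interferon effectors it was found in 47 of 311 genes called higher (15.1%). These matches describe the letters in the window and are not evidence that a factor is bound there.

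Isg15, the ubiquitin-like protein that is attached to other proteins after interferon, was at 111, 109 and 123 CPM in JMO libraries and at 13.2, 11.9 and 24.6 CPM in ∆CT libraries. The log2 fold change was 2.79 ± 0.19 (SE; adjusted p = 9.14e-10, edgeR quasi-likelihood test) and 3.18 without ∆CT replicate 3. Every JMO library was above every ∆CT library. The oligoadenylate synthetase Oas2, which makes the activator of RNase L, was at 162, 141 and 193 CPM against 8.11, 6.74 and 18.9 CPM (log2 fold change 3.89 ± 0.246, adjusted p = 2.92e-10; 4.47 without ∆CT replicate 3). Its relative Oas1g was at 47.6, 38.7 and 50.8 CPM against 2.47, 1.45 and 3.26 CPM, with a log2 fold change of 4.26 ± 0.173 (adjusted p = 4.78e-14). The 3 libraries of either line did not overlap for these genes, and the third ∆CT library was the highest of its group in each.

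Ifit1, a cap-binding inhibitor of viral translation, was among the most abundant effectors, with 584, 529 and 568 CPM in JMO and 95.8, 97.5 and 180 CPM in ∆CT libraries. Its log2 fold change was 2.18 ± 0.175 (adjusted p = 9.70e-09). Rsad2 (viperin) and the helicase Ddx60 had lower levels and larger differences. Rsad2 was at 20.6, 16.8 and 17.7 CPM against 1.04, 1.15 and 1.4 CPM (log2 fold change 3.94 ± 0.131, adjusted p = 4.62e-23). Ddx60 was at 15.2, 13.3 and 16.2 CPM against 0.901, 0.799 and 1.29 CPM, a log2 fold change of 3.9 ± 0.16. The dynamin-like GTPase Mx1 was at 14.8, 14.4 and 14.4 CPM against 1.52, 1.4 and 3.36 CPM, a log2 fold change of 2.81 ± 0.181 (adjusted p = 2.24e-12).

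Slfn2, a schlafen family member, was nearly silent in ∆CT cells, with 1 count over the 3 libraries against 196 in JMO cells. The ratio of the scaled counts was 184 (exact 95% interval 32.6 to 7300, counting error only). The abundant E3 ligase Rnf213 was at 1490, 1310 and 1600 CPM in JMO and at 472, 487 and 811 CPM in ∆CT libraries, a log2 fold change of 1.32 ± 0.169 (adjusted p = 4.65e-06). The calls of Ifit1, Rnf213, Stat2 and Irf9 were lost when the fit held only the 6 libraries compared. Those genes were called in the same direction when ∆CT replicate 3 was left out of the fit to all groups.

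**Figure D2:**
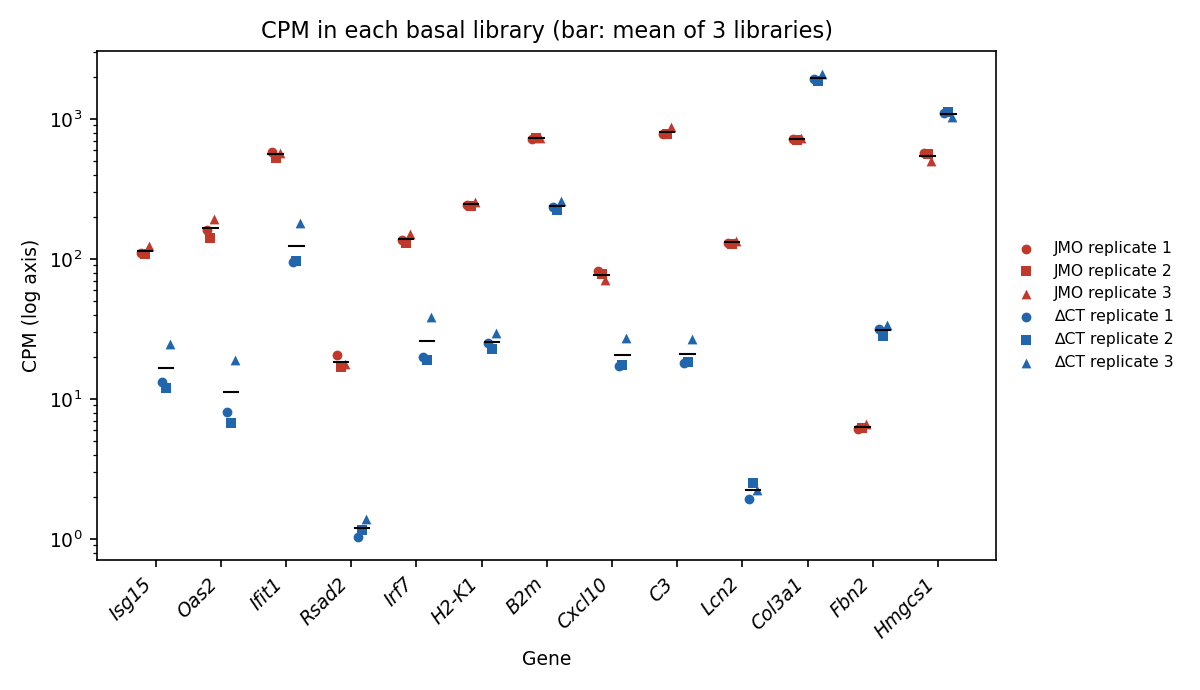
CPM (log axis) of 13 genes in each basal library, JMO in red and ∆CT in blue, with replicate numbers as marker shapes and a bar at the mean of 3 libraries. No gene shown has overlapping groups, and the blue triangle (∆CT replicate 3) lies above the other ∆CT libraries in the interferon genes, for example at 24.6 against 13.2 and 11.9 CPM for Isg15.

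The signalling components of the interferon pathway differed less than the effectors. Of 19 tested members 5 were called higher and 0 lower, with a median log2 fold change of 0.38. Without a minimum fold 14 were higher and 0 lower, beside 19.5% and 19.3% of all genes. The called members were transcription factors. The factor Stat3, the receptor chain and the kinase given below were not called, and a difference by role was not tested. Irf7, the factor that drives interferon gene expression, was at 137, 131 and 151 CPM in JMO and 20, 19 and 38.5 CPM in ∆CT libraries (log2 fold change 2.44 ± 0.175, adjusted p = 1.78e-09; 2.84 without ∆CT replicate 3). Stat2 differed by 1.25 ± 0.115, Irf9 by 0.98 ± 0.102 and Irf5 by 1.37 ± 0.141 on the log2 scale, all higher in JMO. The receptor subunit Ifnar1 was at 147, 148 and 149 CPM against 144, 145 and 153 CPM, and these groups overlapped (log2 fold change 0.01 ± 0.0336). The kinase Jak1 was at 398, 399 and 366 CPM against 334, 346 and 320 CPM, a log2 fold change of 0.22 ± 0.0344 that was past the test of no difference (adjusted p = 3.24e-06) and not past 1.5-fold. Stat3 differed by 0.14 ± 0.0329 on the log2 scale and was not called.

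Sensors of viral RNA and DNA, some of which can start an interferon response, were higher in 8 of 13 tested members and lower in 0. The median log2 fold change was 1.1, and 1.29 without ∆CT replicate 3. Zbp1, a sensor of left-handed nucleic acid, was at 19.9, 17.9 and 20.8 CPM in JMO and 0.617, 0.849 and 2.38 CPM in ∆CT libraries (log2 fold change 3.95 ± 0.227, adjusted p = 5.79e-12). Dhx58, the regulator of the RIG-I-like receptors also called LGP2, was at 52.8, 46.6 and 58.4 CPM against 7.97, 8.14 and 15.9 CPM (2.31 ± 0.191, adjusted p = 1.33e-08). The endosomal RNA receptor Tlr3 was at 77.2, 78.2 and 84 CPM against 24.8, 26.9 and 34.4 CPM (1.48 ± 0.0826). The DNA sensor Aim2 was low throughout, at 1.59, 1.28 and 1.34 CPM against 0.379, 0.2 and 0.569 CPM, and was not called in DESeq2. The downstream kinase Tbk1 and the adaptor Tmem173 (STING) were not called, at log2 fold changes of 0.16 ± 0.0387 and -0.17 ± 0.0497.

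Class I antigen presentation, by which cells display internal peptides, was higher for 13 of 23 tested members and lower for 0, with a median log2 fold change of 1.2 (1.35 without ∆CT replicate 3). H2-K1, a class I heavy chain, was at 243, 239 and 254 CPM in JMO and 25, 22.7 and 29.5 CPM in ∆CT libraries (log2 fold change 3.25 ± 0.0623, adjusted p = 1.97e-24). The light chain B2m was at 722, 727 and 736 CPM against 234, 223 and 259 CPM (1.61 ± 0.0445, adjusted p = 1.88e-23). H2-Q4 differed by 2.99 ± 0.0668 and H2-D1 by 2.38 ± 0.0629 on the log2 scale, with the caution that class I genes are near-identical copies between which estimated counts may be split. Nlrc5, the transactivator of class I genes, was at 36, 29.9 and 34.7 CPM against 4.65, 4.74 and 7.87 CPM (2.55 ± 0.12, adjusted p = 9.39e-16). The immunoproteasome subunit Psmb8 was at 4.23, 3.98 and 4.16 CPM against 0.427, 0.599 and 1.09 CPM. Chaperones shared with all secreted proteins went the other way within the 1.5-fold limit: Calr was at 1100, 1150 and 1140 CPM against 1360, 1380 and 1290 CPM (log2 fold change -0.25 ± 0.0285).

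Complement and acute-phase genes had the largest median of the lists, 2.1 on the log2 scale, with 17 of 24 tested members higher and 0 lower in JMO cells. Their summed level was a mean of 2291 CPM in JMO and 607.6 CPM in ∆CT cells. Lcn2 (lipocalin 2, which binds bacterial siderophores) was at 131, 128 and 135 CPM against 1.94, 2.5 and 2.23 CPM, a log2 fold change of 5.88 ± 0.0732 (adjusted p = 1.08e-35). Saa3, an acute-phase apolipoprotein, was at 62.6, 62.3 and 72 CPM against 3.13, 2.15 and 3.83 CPM (4.43 ± 0.103, adjusted p = 2.29e-26). C4b had 87 counts in JMO and 2 in ∆CT libraries, a ratio of 40.8 (exact 95% interval 11 to 343). The lectin-pathway protease Masp1 was not called, at 338, 333 and 342 CPM against 306, 304 and 292 CPM, nor was C1rl (log2 fold change 0.47 ± 0.0727). In this list ∆CT replicate 3 was a median of 1.12 times the other ∆CT libraries, again with 0.5 CPM added to both.

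Cytokines and chemokines were higher in 11 of 34 tested members and lower in 1 (median log2 fold change 0.58; 0.47 without ∆CT replicate 3). Cxcl5, a neutrophil attractant, was at 146, 147 and 152 CPM in JMO and 32, 34.8 and 28.1 CPM in ∆CT libraries (log2 fold change 2.23 ± 0.0821, adjusted p = 4.19e-15). Cxcl10, an interferon-induced attractant of T cells, was at 82.4, 77.5 and 70.6 CPM against 17.2, 17.5 and 27.2 CPM (1.9 ± 0.148, adjusted p = 5.76e-09). Ccl2, the monocyte attractant, was at 490 CPM in each JMO library and at 257, 253 and 226 CPM in the ∆CT libraries (1 ± 0.073). Il6 was low, with 1.83, 1.94 and 2.28 CPM against 0.427, 0.3 and 0.362 CPM (2.45 ± 0.302, adjusted p = 3.47e-08). Il1rn, the antagonist of interleukin 1, differed by 2.14 ± 0.168 and Ccl5 by 1.89 ± 0.139 on the log2 scale. Of the abundant members, the chemokine Cxcl12 (0.32 ± 0.0341) and the growth factors Csf1 (0.17 ± 0.0503) and Fgf7 (0.63 ± 0.0884) were not called. Of the NF-kB pathway components 2 of 26 were called higher, and Nfkb1 itself was at 148, 152 and 148 CPM against 126, 127 and 125 CPM (0.25 ± 0.0323). The NF-kB consensus site was found in 2 of 356 promoter windows of genes called higher (0.562%) and in 0.212% of all promoters. Of the tested leukocyte markers, Cd14 was at a mean of 12.9 CPM in JMO and 9.97 CPM in ∆CT cells and was not called, and the lysozyme Lyz2 was at 10.7 and 5.12 CPM and was called higher; the part of such cells in these results was not tested.

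Matrix-degrading enzymes went both ways, with 4 of 24 members of the metalloproteinase and inhibitor list higher and 3 lower. Mmp3 (stromelysin) was at 8.01, 8.16 and 7.33 CPM in JMO and 1.75, 1.45 and 1.92 CPM in ∆CT libraries (log2 fold change 2.2 ± 0.144, adjusted p = 9.51e-15). The collagenases Mmp13 and Mmp8 were low: Mmp13 differed by 2.14 ± 0.252 on the log2 scale, and Mmp8 had 52 counts against 3, a ratio of 16.3 (exact 95% interval 5.27 to 81.5). Adamts1, a protease of the proteoglycan versican, was lower in JMO cells at 345, 339 and 322 CPM against 797, 808 and 744 CPM (-1.22 ± 0.0442, adjusted p = 9.16e-20). Adam19 was at 10.6, 9.13 and 10.7 CPM against 30, 30.4 and 31.6 CPM. The inhibitor Timp2 was at 675, 684 and 666 CPM against 654, 652 and 682 CPM, and these groups overlapped.

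Fibrillar collagens, the rope-forming collagens, were lower in 5 of 10 tested members and higher in 0, with a median log2 fold change of -0.49. Together they summed to a mean of 8952 CPM in JMO and 15480 CPM in ∆CT cells. Col3a1 was at 723, 705 and 731 CPM in JMO and 1940, 1870 and 2100 CPM in ∆CT libraries (log2 fold change -1.45 ± 0.0365, adjusted p = 1.15e-26). Col11a1, which nucleates fibrils, was at 175, 176 and 179 CPM against 472, 460 and 515 CPM (-1.45 ± 0.0345). The abundant Col1a1, Col1a2 and Col5a1 differed less, by -0.77 ± 0.0399, -0.81 ± 0.0279 and -0.78 ± 0.0271 on the log2 scale. Col5a2 was not called, at 1370, 1360 and 1320 CPM against 1510, 1510 and 1440 CPM.

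Of the network and fibril-associated collagens 1 of 22 was called higher (4.55%, beside 3.43% of all genes) and 0 lower in edgeR. Without a minimum fold 5 were higher and 9 lower, beside 19.5% and 19.3% of all genes. The median log2 fold change was -0.23. The difference between the collagen lists was not tested. Col6a1 differed by -0.31 ± 0.0387 and Col12a1 by 0.53 ± 0.0304 on the log2 scale, with Col12a1 at 949, 948 and 949 CPM in JMO and 633, 657 and 680 CPM in ∆CT libraries. Of the enzymes that process collagen, 1 of 26 was higher and 1 lower: the lysyl oxidase Loxl2 was at 155, 159 and 152 CPM against 260, 262 and 252 CPM, and the procollagen C-proteinase enhancer Pcolce2 was at 27.5, 29.5 and 27.7 CPM against 9.91, 10.9 and 11.1 CPM. Of elastic fibre and matrix glycoproteins 4 of 36 were higher and 4 lower. Ltbp2, a microfibril-associated protein, was at 112, 114 and 129 CPM in JMO and 1.56, 1.75 and 1.86 CPM in ∆CT libraries (6.09 ± 0.0838, adjusted p = 1.59e-34), the largest difference of the list. Fbn2, a microfibril protein of developing tissue, was at 6.14, 6.22 and 6.64 CPM against 31.5, 28 and 33.7 CPM (-2.29 ± 0.0794, adjusted p = 1.53e-22). Postn (periostin) was at 56, 52.8 and 68 CPM against 124, 122 and 178 CPM (-1.26 ± 0.139), also a call lost when only these 6 libraries were fitted. Fn1 (fibronectin) was at 5650, 5470 and 5420 CPM against 5090, 4820 and 5370 CPM, a log2 fold change of 0.11 ± 0.0313 that was not called.

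Among the proteoglycan and tenocyte genes 6 of 23 were higher and 3 lower. The member with the largest difference was lower: Tnmd (tenomodulin), a tendon membrane protein, had 2 counts in JMO and 47 in ∆CT libraries, a ratio of 25 in favour of ∆CT (exact 95% interval 6.56 to 213). Fmod (fibromodulin), which regulates collagen fibril width, was at 14.6, 13.2 and 14.6 CPM in JMO and 4.03, 3.65 and 4.45 CPM in ∆CT libraries (log2 fold change 1.81 ± 0.123). Sdc3 (syndecan 3) and Prelp were also higher, by 1.22 ± 0.0655 and 1.02 ± 0.0872 on the log2 scale. Of 23 integrins and laminins 2 were higher and 1 lower. The basement membrane chain Lama4 was at 76.8, 75.4 and 78.9 CPM against 28, 28.7 and 33.0 CPM (1.37 ± 0.0552). The collagen-binding integrin Itga10 was the lower member, at 8.38, 6.84 and 6.59 CPM against 20.7, 18.2 and 23.5 CPM (-1.5 ± 0.0975, adjusted p = 2.15e-14).

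Cholesterol synthesis and uptake genes were lower in 13 of 36 tested members and higher in 2, with a median log2 fold change of -0.62. Without a minimum fold 27 were lower and 5 higher, beside 19.3% and 19.5% of all genes. Insig1, the sterol-sensing anchor of the SREBP pathway, was at 312, 307 and 293 CPM in JMO and 680, 706 and 651 CPM in ∆CT libraries (log2 fold change -1.16 ± 0.037, adjusted p = 1.47e-23). Hmgcs1, an early enzyme of the mevalonate pathway, was at 570, 565 and 501 CPM against 1100, 1120 and 1040 CPM (-0.99 ± 0.0381). Cyp51, Fdps and Sqle, later steps, differed by -0.88 ± 0.0413, -0.84 ± 0.0422 and -0.75 ± 0.0378 on the log2 scale. Srebf2, which encodes the SREBP factor of sterol genes, was at 418, 430 and 397 CPM against 522, 490 and 522 CPM (-0.3 ± 0.0411), past the test of no difference and not past 1.5-fold. The higher members of the list move cholesterol out of cells or lysosomes: Abca1, the efflux transporter, was at 2.32, 1.79 and 2.48 CPM against 0.379, 0.35 and 0.362 CPM, and Npc2, the lysosomal carrier, was at 445, 420 and 441 CPM against 173, 176 and 206 CPM (1.24 ± 0.0444).

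The Hmgcs1 promoter (chr13:119690174-119690262, plus strand, GRCm38) is shown because it was the 1 of 8 lower cholesterol genes with a RefSeq promoter that held TCACNCCAC, the sterol element, in the same window; capitals mark it.
Hmgcs1: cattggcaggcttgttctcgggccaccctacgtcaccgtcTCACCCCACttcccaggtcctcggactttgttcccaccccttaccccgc
The sterol element was found in 1.28% of all tested promoters, 0.843% of those of genes called higher and 1.82% of those called lower.

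Fatty acid synthesis followed with 5 of 24 lower and 1 higher (median log2 fold change -0.38). Scd2, a desaturase, was at 2160, 2180 and 1970 CPM in JMO and 3760, 3820 and 3660 CPM in ∆CT libraries (-0.83 ± 0.0334, adjusted p = 1.23e-20). Acsl3, which activates long-chain fatty acids, was at 118, 115 and 108 CPM against 213, 235 and 233 CPM (-1 ± 0.0397). The elongase Elovl6 and the phosphatidate phosphatase Lpin1 differed by -0.94 ± 0.059 and -0.96 ± 0.0403 on the log2 scale. Scd1 and Acly, at -0.54 ± 0.0322 and -0.52 ± 0.0326, were not called. The triglyceride enzyme Dgat2 was the higher member, at 9.11, 8.37 and 9.12 CPM against 4.46, 4.94 and 5.23 CPM, a call that was lost in limma, in DESeq2, with no filter on low counts and without any 1 of 4 libraries (JMO replicates 1 and 3, ∆CT replicates 1 and 2).

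**Figure D3:**
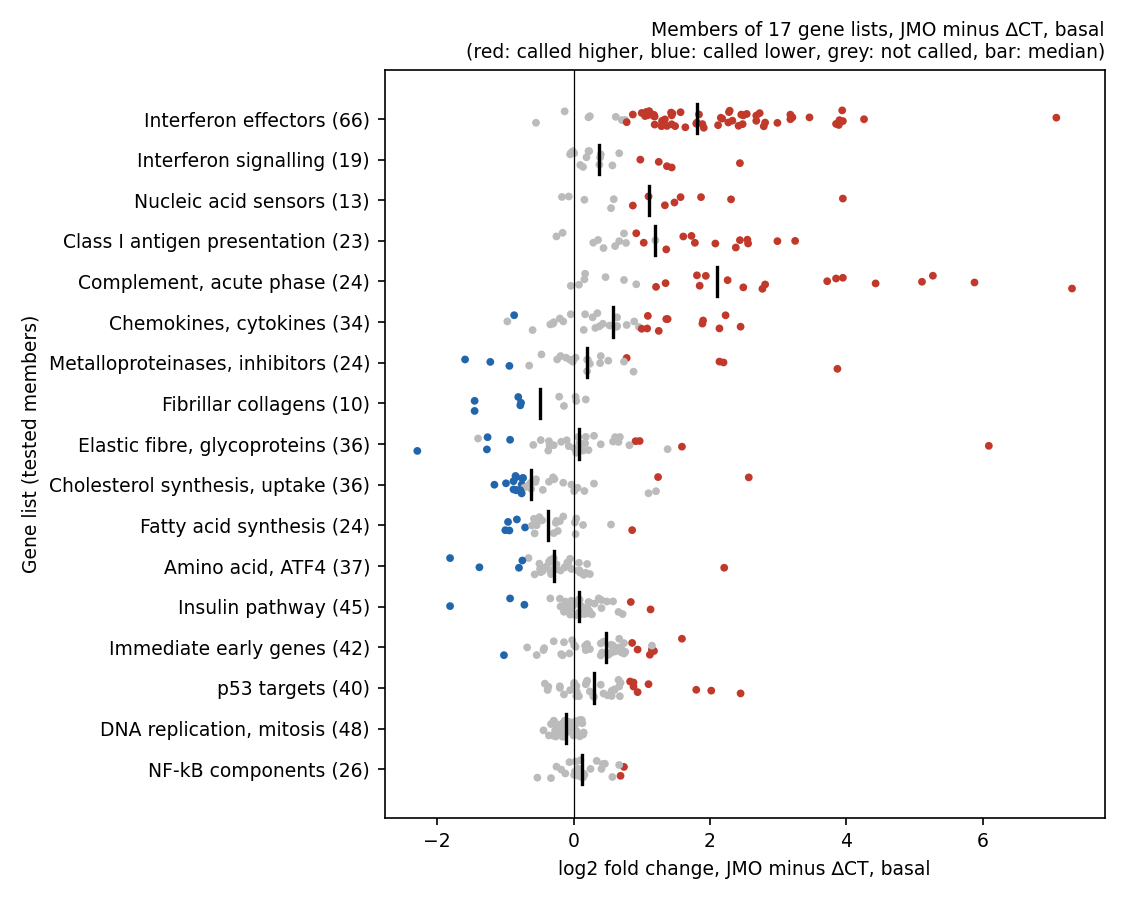
Log2 fold change, JMO minus ∆CT without insulin, for every tested member of 17 gene lists, in red where called higher, in blue where called lower and in grey otherwise, with a bar at the median of the list. Members of the interferon effector list lie mostly to the right (median 1.81), cholesterol genes mostly to the left (median -0.62), and DNA replication genes close to 0 (median -0.12).

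The amino acid response, driven by the transcription factor ATF4, was lower in 4 of 37 tested members and higher in 1 (median log2 fold change -0.29). Atf4 was at 140, 136 and 128 CPM in JMO and 249, 245 and 213 CPM in ∆CT libraries (-0.80 ± 0.0469, adjusted p = 4.35e-15). Its target Trib3, a pseudokinase that binds AKT, was at 9.15, 8.62 and 9.02 CPM against 34.7, 31.4 and 27.8 CPM. Chac1, which degrades glutathione, was at 6.87, 6.94 and 6.14 CPM against 18.4, 18.8 and 14.8 CPM. The mitochondrial folate enzyme Aldh1l2 was lower by 0.75 ± 0.0329 on the log2 scale. The arginine transporter Slc7a2 was the higher member (2.21 ± 0.15), and the glutamine transporter Slc38a2 was not called at 616, 620 and 599 CPM against 586, 582 and 558 CPM. Of 31 endoplasmic reticulum chaperone genes 1 was lower (3.23%, beside 1.08% of all genes), Herpud1. Its call was lost in limma, in DESeq2 and without JMO replicate 1 or ∆CT replicate 1. Hsp90b1 was at 1720, 1720 and 1730 CPM against 2010, 2080 and 1940 CPM without being called.

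In the insulin pathway 2 of 45 members were called higher (4.44%, beside 3.43% of all genes) and 3 lower (6.67%, beside 1.08%), with a median log2 fold change of 0.08. Without a minimum fold 19 members were higher and 10 lower, beside 19.5% and 19.3% of all genes. Irs1, the main docking protein of the receptor, was at 214, 213 and 202 CPM in JMO and 350, 350 and 335 CPM in ∆CT libraries (-0.72 ± 0.0367, adjusted p = 9.53e-18). Grb10, an adaptor that restrains the receptor and is an imprinted gene, was at 152, 147 and 150 CPM against 288, 282 and 285 CPM (-0.93 ± 0.0314, adjusted p = 7.59e-23). Trib3, given above, was the other lower member. Gab2, a scaffold for growth factor signals, was at 18.9, 19.5 and 21.7 CPM against 11.4, 10 and 12.1 CPM, a call that was lost in DESeq2 and without ∆CT replicate 2 or JMO replicate 3. Shc2 was at 2.28, 2.25 and 3.02 CPM against 1.42, 1.05 and 0.932 CPM, and its call was lost in limma, DESeq2 and the fit with replicate number as a block, and without ∆CT replicate 2 or 3 or JMO replicate 3. Among 35 tested receptor tyrosine kinases and partners 0 were called higher and 2 lower in edgeR; they were Egfr, at 43.2, 43.8 and 45.1 CPM against 86.8, 83.7 and 91.8 CPM, and Cav1, the caveolar coat protein, at 202, 209 and 195 CPM against 341, 349 and 340 CPM. Without a minimum fold 10 members of that list were higher and 12 lower, beside 19.5% and 19.3% of all genes. With ∆CT replicate 3 left out, 2 members were called higher.

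Of 13 IGF axis genes 3 were higher and 2 lower. Igf1 was at 5.61, 7.3 and 6.49 CPM in JMO and 12.2, 12.3 and 12 CPM in ∆CT libraries (-0.92 ± 0.1), a call that was lost in limma, in DESeq2 and without JMO replicate 1. The binding protein Igfbp4 was at 2.2, 2.6 and 3.67 CPM against 8.39, 7.99 and 9.06 CPM (-1.60 ± 0.14, adjusted p = 1.52e-11), whereas Igfbp7 was at 242, 247 and 238 CPM against 75, 79.9 and 86.5 CPM (1.59 ± 0.0509, adjusted p = 4.78e-20). Igf2 was low, at 1.18, 0.663 and 0.743 CPM against 0.0949, 0.00 and 0.103 CPM. Of 22 imprinted genes 1 was higher (4.55%, beside 3.43% of all genes) and 2 lower (9.09%, beside 1.08%). Peg10 was at 41.2, 40.7 and 40.2 CPM against 71.5, 75.2 and 74 CPM.

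Targets of p53 were higher in 8 of 40 tested members and lower in 0, with a median log2 fold change of 0.3. Cdkn1a, the cell cycle inhibitor p21, was at 69.9, 76 and 73.4 CPM in JMO and 42.0, 38.6 and 42.7 CPM in ∆CT libraries (0.83 ± 0.0522, adjusted p = 3.21e-15). Trp53inp1 was at 103, 106 and 103 CPM against 51.5, 52.9 and 58.4 CPM, and the death-promoting Pmaip1 (Noxa) was at 7.16, 7.55 and 7.78 CPM against 2.61, 1.9 and 1.92 CPM. Of 39 apoptosis regulators 3 were higher and 0 lower; the death receptor Fas differed by 0.88 ± 0.0735 and the inflammatory caspase Casp4 by 2.68 ± 0.106 on the log2 scale. Of 29 cyclins and cell cycle inhibitors 3 were higher, Cdkn1a among them with Cdk6, at 90.5, 92 and 90.1 CPM against 54.7, 55.8 and 52.3 CPM, and the cyclin Ccnd2 (1.11 ± 0.122). Genes of DNA replication and mitosis were called in 0 of 48 cases by edgeR, with a median of -0.12. At an adjusted p without a minimum fold 4 were higher and 27 lower, beside 19.5% and 19.3% of all genes. Mki67 was at 501, 479 and 481 CPM against 559, 603 and 555 CPM. All lines carry SV40 T antigen, which binds p53.

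Immediate early genes, which respond to growth factors within minutes, were higher without insulin in 6 of 42 tested members and lower in 1 (median log2 fold change 0.48). Fos was at 5.81, 4.75 and 5.05 CPM in JMO and 1.71, 1.3 and 2.23 CPM in ∆CT libraries (1.59 ± 0.162, adjusted p = 7.36e-10). Egr3 was at 12, 14.5 and 14.8 CPM against 5.83, 6.79 and 5.95 CPM (1.15 ± 0.0935, adjusted p = 2.66e-12). Fosl1 differed by 1.12 ± 0.131 on the log2 scale. The feedback inhibitor Spry1 was the lower member, at 8.09, 9.23 and 7.48 CPM against 17.5, 19 and 13.9 CPM. No library of either line reached 20 CPM for these genes, which were thus measured at low level, without overlap between the lines. Egr1 and Ier3 were also called higher and were more abundant. Egr1 was at 108, 105 and 115 CPM in JMO and 57.3, 56.6 and 67.8 CPM in ∆CT libraries. Ier3 was at 33.0, 34.0 and 32.8 CPM against 18.9, 18.3 and 14.8 CPM.

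Of 44 antioxidant and aryl hydrocarbon receptor genes 6 were higher and 0 lower. Cyp1a1, a xenobiotic-metabolizing cytochrome, was at 10.1, 11.2 and 9.56 CPM in JMO and 2.51, 1.9 and 0.983 CPM in ∆CT libraries (2.5 ± 0.194, adjusted p = 2.52e-12). The extracellular superoxide dismutase Sod3 was at 64.1, 68.1 and 67.4 CPM against 14.3, 14.8 and 12.8 CPM (2.25 ± 0.0655, adjusted p = 9.63e-25). Of 22 adipocyte lineage genes 4 were higher and 1 lower; the early differentiation factor Cebpd was at 25, 25.4 and 22.8 CPM against 10.3, 11.7 and 10.3 CPM. The fatty acid binding protein Fabp4 was at 4.76, 4.13 and 4.36 CPM against 0.711, 0.949 and 0.983 CPM. Of 50 TGF-beta, BMP, Notch and Wnt genes 5 were higher and 2 lower, and matricellular proteins of the CCN family went both ways. Ccn5 was at 89, 93.6 and 91.6 CPM against 24.3, 23.3 and 23.1 CPM, and Ccn3 was at 35.4, 34.1 and 32.2 CPM against 74.1, 70.9 and 81.1 CPM. Of 32 contractile genes 2 were higher; Acta2 (smooth muscle actin) was at 555, 573 and 557 CPM against 319, 312 and 320 CPM, and Tagln (transgelin) was at 143, 151 and 142 CPM against 68.3, 71.2 and 66.1 CPM. The smooth muscle and pericyte markers summed to 655 CPM in JMO and 442 CPM in ∆CT cells, a sum in which Acta2 is the main term. Of 36 glycolysis genes 1 was higher (2.78%, beside 3.43% of all genes) and 0 lower. Gapdh was at 1420, 1440 and 1340 CPM against 1800, 1830 and 1630 CPM (-0.33 ± 0.0384, not called). The iron store subunit Fth1 was at 1810, 1860 and 1860 CPM against 955, 1010 and 1020 CPM (0.89 ± 0.0312, adjusted p = 1.99e-22).

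Of genes much lower in JMO than in ∆CT cells, several are in none of these lists. Adgrl3 (latrophilin 3, an adhesion receptor) was at 1.22, 1.12 and 1.04 CPM in JMO and 7.59, 8.44 and 6.57 CPM in ∆CT libraries (-2.73 ± 0.152, adjusted p = 1.24e-16). Cmklr1, the chemerin receptor, was at 0.529, 0.408 and 0.347 CPM against 3.75, 3 and 3.21 CPM (-2.92 ± 0.244). Gas2, an actin-associated protein of growth arrest, was at 18.3, 16.2 and 15.1 CPM against 70.1, 70.3 and 71 CPM (-2.08 ± 0.0514, adjusted p = 8.08e-27). The PACAP receptor Adcyap1r1 was at 13.8, 12.6 and 10.9 CPM against 58.8, 65.4 and 43.5 CPM. Ptprq, a receptor phosphatase, and Piezo2, a mechanically gated channel, differed by -2.30 ± 0.188 and -2.03 ± 0.216 on the log2 scale. The synaptic vesicle protein Sv2b differed by -2.71 ± 0.323, the transcription cofactor Cited1 by -2.28 ± 0.22 and the peptidase Trhde by -2.07 ± 0.149. The carbonic anhydrases Car3, a member of the adipocyte lineage list, and Car2 differed by -3.38 ± 0.318 and -2.39 ± 0.281. In all, 357 of the 528 higher and 114 of the 166 lower genes were in none of the lists.

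Along the chromosomes, 24 runs of 3 or more adjacent tested genes were all called higher, holding 106 genes, and 0 runs were all lower. The longest, with 11 genes of the Ifi200 family at chr1:173350879-174031810, had log2 fold changes of 1.01 to 3.10. A run of 7 class I genes lay at chr17:36029773-36129425 and one of 6 Gbp genes, interferon-induced GTPases, at chr5:105077630-105346472. A run of 6 Serpina3 genes, acute-phase protease inhibitors, lay at chr12:104214544-104414329 and one of 4 complement C1r and C1s genes at chr6:124512405-124636085. These are families of similar copies, and reads may be shared within them. In windows of 50 consecutive tested genes the median log2 fold change stayed between -0.154 and 0.201 over 577 windows.

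The levels of JMO and ∆CT cells are set beside those of the other basal lines as values only, since the groups of the series share their source. The interferon effectors summed to a mean of 9725 CPM in JMO and 3316 CPM in ∆CT cells, beside 10890 CPM in DKO, 6258 CPM in IR and 3749 CPM in K1030R cells (3 libraries each). The ∆CT range of 2862 to 4192 CPM held the K1030R range of 3619 to 3967 CPM only because of ∆CT replicate 3. ∆CT replicates 1 and 2, at 2895 and 2862 CPM, lay below the K1030R range. The complement and acute-phase genes summed to 2291 CPM in JMO and 607.6 CPM in ∆CT cells, beside 1650 CPM in DKO, 593 CPM in IR and 667.1 CPM in K1030R cells. The fibrillar collagens were at 8952 CPM in JMO and 8328 CPM in DKO cells, while K1030R had 14470 CPM, ∆CT 15480 CPM and normal IR 18420 CPM. The cholesterol genes were lowest in JMO, at 6311 CPM, followed by DKO with 7783 CPM, normal IR with 8347 CPM, ∆CT with 9819 CPM and K1030R with 10030 CPM, and the last pair overlapped.

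**Figure D4:**
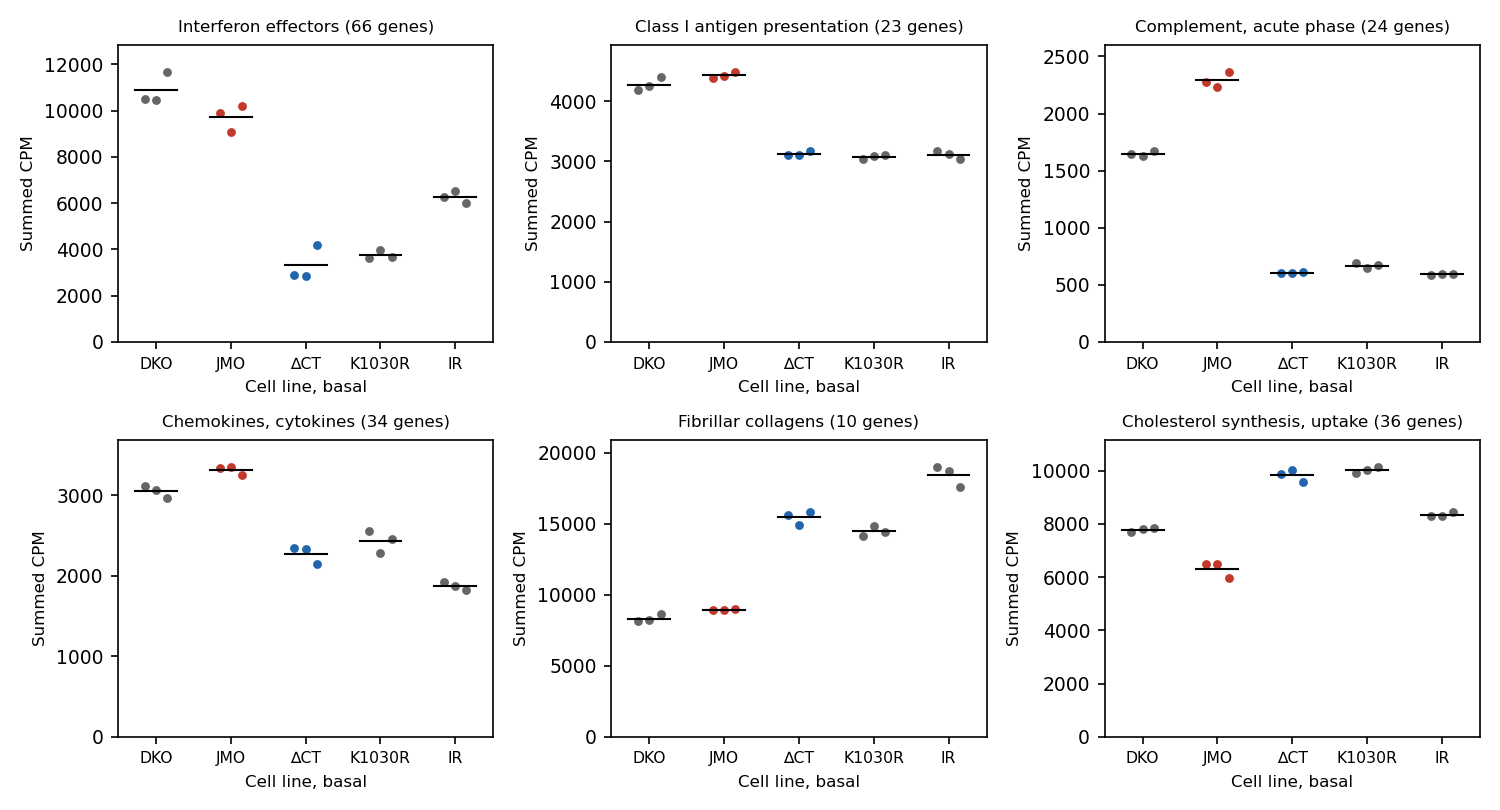
Summed CPM of 6 gene lists in each basal library of the 5 cell lines (JMO red, ∆CT blue, others grey; bar at the mean of 3 libraries, axes from 0). JMO libraries lie above the ∆CT libraries in the interferon, class I, complement and cytokine lists and below them in fibrillar collagens and cholesterol genes.

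Libraries taken after 15 min of insulin, which the basal comparison did not use, gave a second measurement of the same lines with 3 JMO and 2 ∆CT libraries. There 488 genes (3.17%) were called higher and 169 (1.1%) lower in JMO cells, or 2660 (17.3%) and 2437 (15.8%) with no minimum fold. Of the basal calls, 432 higher genes (81.8% of the basal and 88.5% of the insulin list) and 131 lower genes (78.9% and 77.5%) were called the same way. A further 89 genes were called with insulin and not basally, and 5 were called in both with opposite sign. The interferon effectors again had 59 members higher, with a median log2 fold change of 1.87, and the complement list 17 with a median of 2.01. Because the cells are the same lines, this repeats the measurement and not the derivation of the lines.

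The difference between the lines changed with insulin in 19 genes (0.123%). In each of them the JMO minus ∆CT log2 difference was lower with insulin than without. For 0 genes it was higher in edgeR's test against 1.5-fold, and limma and DESeq2 also gave 0. With no minimum fold 1 gene (0.00649%) changed upward and 39 (0.253%) downward. In that test without a minimum fold, 376 of the 15402 genes had an unadjusted p below 0.05 upward and 326 downward. With insulin Fos was at 12.2, 10.9 and 12.5 CPM in the JMO and 60.1 and 68 CPM in the ∆CT libraries, the reverse of its basal order. The immediate early list went from a median log2 fold change of 0.48 without insulin to -0.46 with it, with 16 of 42 members then called lower.

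**Figure D5:**
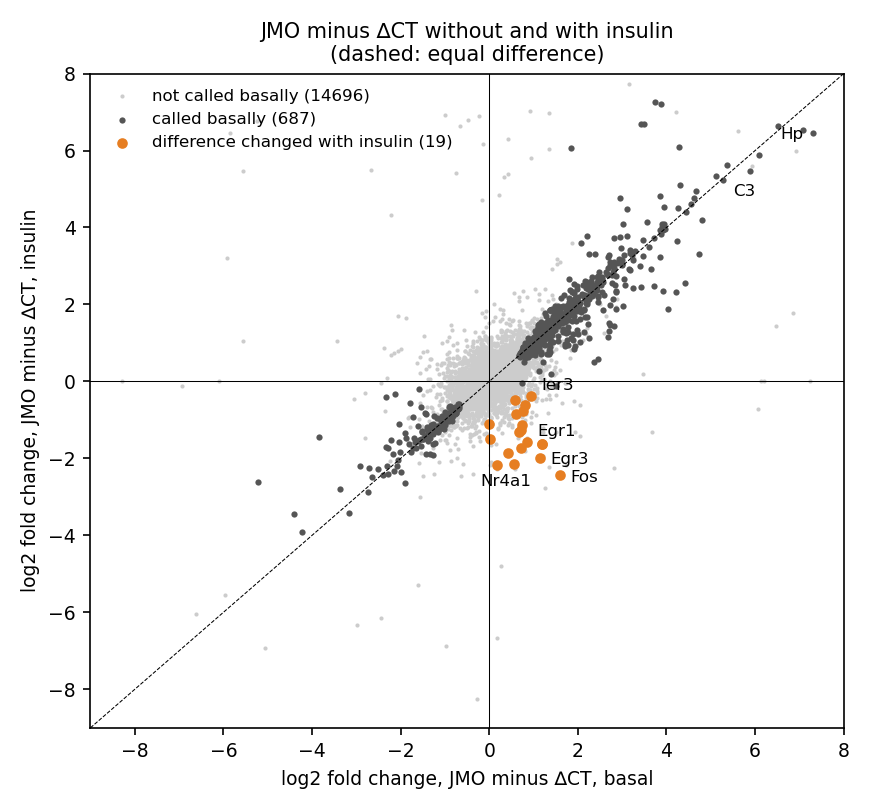
Log2 fold change, JMO minus ∆CT, without insulin (horizontal) and after 15 min of insulin (vertical) for all tested genes; dark points were called basally, orange points are the 19 genes whose difference changed with insulin. Most dark points follow the dashed line of equal difference, and the orange points, all called in the interaction test, lie below it.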

How the data were processed

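RNA was measured by oligo-dT selected sequencing of 26 libraries, 3 for each basal group and 2 or 3 after insulin. The authors trimmed the reads (fastp), pseudoaligned them to mouse Ensembl transcripts (kallisto) and collapsed transcripts into gene-level values (tximport), so that the deposited values are estimated counts, 79.9% of them whole; they were rounded here. Tool versions are not given in the sources used here. Because kallisto divides reads among similar transcripts, levels of near-identical paralogs are uncertain, and 331 tested genes have counts identical to another gene. Genes above 0.5 CPM in at least 4 libraries were kept (15402; 37560 were not tested), and low genes are therefore absent. TMM factors and edgeR 4.0.16 in R 4.3.3 were used, with a quasi-likelihood fit over all 26 libraries and 1 mean per group. A call required glmTreat against 1.5-fold at a Benjamini-Hochberg adjusted p below 0.05; log2 fold changes, SE and adjusted p of single genes are from the test without a minimum fold. CPM use TMM-scaled library sizes. Intervals and floors (95%, 3 counts) cover counting error only.

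Groups came from the sample labels; replicates are libraries. Replicate pairs differed by more than sampling noise (chi-square per degree of freedom 2.94 to 13.5), so none was counted as 1 sample. The members and lists were chosen with earlier results of these data known. Genes named were the 12 highest and 12 lowest called genes by fold with at least 1 CPM in the higher group. The 6 with the largest CPM difference in each direction were added, with up to 5 called and 3 uncalled members per list. Insr, Igf1r and genes named in the study's account of these lines were also included. Ifit3, Ifit3b and Oas3 are named for their promoters. Vim, Ebf2, Zfp423, Dlk1, Cd34, Ly6a, Lyz2, Ucp1, Adipoq, Lep, Cidec, Adgre1, Cd14 and Ptprc are named as cell markers, and the members of adjacent runs by family. The promoter genes, markers and runs were chosen after their values were seen. Some genes that the rule names are not reported here. Alternatives were RLE factors, other filters, unrounded counts, DESeq2 1.42.0, limma 3.58.1, other thresholds, only the compared groups, a replicate block and leaving out libraries; leaving out ∆CT replicate 3 for the lists was added after seeing the data. The fit was tested on simulated counts. Promoters are RefSeq, GRCm38.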

Additional observations from a re-analysis of the deposited data

Results flagged for a closer look

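The change of the JMO minus ∆CT difference with insulin (log2 difference with insulin minus that without) was past the test in 19 genes, all negative, and in 0 in the other direction. The 5 with the largest change were Fos at -4.03, Egr3 at -3.12, Egr2 at -2.80, an unnamed gene with counts identical to those of Egr2 (ENSMUSG00000116458), also at -2.80, and Ier2 at -2.71. Arc changed by -2.45, Egr1 by -2.43, Nr4a1 by -2.34, Zfp36 by -2.28, Btg2 by -1.98, Ccn1 by -1.96 and Junb by -1.88. Smaller changes were those of Fosb and Dusp5, at -1.52 each, Errfi1 at -1.44, Ptgs2 at -1.42, Ier3 at -1.33, Klf2 at -1.09 and Jun at -1.05. The group of 2 ∆CT insulin libraries limits their precision. Dusp5 and Errfi1 encode inhibitors of growth factor signalling and Zfp36 and Btg2 restrain messenger RNA and cell division.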

How the results depend on the processing

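The basal calls (528 higher, 166 lower) became 3001 and 2974 with no minimum fold and 247 and 45 at a minimum fold of 2. At an adjusted p of 0.001 they were 355 and 108. Other tools gave fewer basal calls, 441 higher and 132 lower in limma and 369 and 117 in DESeq2. A fit of only the 6 libraries compared gave 439 and 155. The insulin calls became 2660 higher and 2437 lower with no minimum fold, 244 and 57 at a fold of 2, and 309 and 104 at an adjusted p of 0.001; DESeq2 called 316 higher. The interaction gave 1 higher and 39 lower with no minimum fold and 46 and 50 with no filter on low counts. Leaving out 1 library at a time gave 460 to 530 higher and 148 to 166 lower basally, 388 to 460 and 137 to 163 with insulin, and 0 to 1 and 18 to 19 in the interaction. Without ∆CT replicate 3 the list medians were 2.06 (interferon effectors), 1.29 (sensors), 1.35 (class I) and 0.47 (cytokines), and calls higher were 2 (receptor tyrosine kinases), 1 (insulin pathway), 2 (DNA damage and PML) and 1 (NF-kB). Igf1r changed sign, to 0.01, without ∆CT replicate 2, and Ifnar1, near 0 throughout, to -0.01 with no filter and between -0.01 and 0.04 without a library. With replicate number as a block, 532 higher and 165 lower genes were called basally; residual correlations of same-numbered libraries were -0.071, -0.02 and 0.074, so the numbers were not taken to pair the libraries. Of the genes named, Dgat2, Gab2, Herpud1, Igf1 and Shc2 lost their call without 1 library, as given with their values. Low counts limit the precision of ratios for genes with 1 to 3 counts in a group.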
